A study of Homo sapiens with 6 samples.

Results

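Transcripts of 9 serine protease and inhibitor genes, grouped by name around the trypsin-like proteases, were followed in SW480 cells, an established human colon carcinoma line, after knockdown of gankyrin. They are 7 proteases (PRSS2, PRSS3, PRSS8, PRSS16, PRSS22, PRSS23 and ST14) and 2 Kunitz-type inhibitors (SPINT1 and SPINT2). The genes were taken by name, with every array probe set that the platform annotation assigns to one of them alone. This gave 17 probe sets of 54613, and 9 genes of the 19775 that have a probe set of their own. They were chosen with knowledge gained from the measured difference between the groups, so the size and the call of each difference below describe these genes and are not independent evidence about them.

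All 6 arrays carried RNA from SW480 cells. In 3 arrays the cells had received a non-targeting control shRNA and in 3 an shRNA against gankyrin, each for 4 days, and the design text states that the shRNAs were introduced by infection. The labels name no other treatment. They give neither the hairpin sequence nor the number of hairpins, and leave unsaid whether replicates were grown as separate cultures, so p-values measure only the spread of these arrays and may reflect technical variation. The model is a single cell line. In the design text NFIL3 appears in place of gankyrin at a single point, while every sample label names gankyrin.

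Trypsin-like proteases cut after arginine or lysine and are made as inactive zymogens that another protease, or the enzyme itself, must cleave. ST14 encodes matriptase, a transmembrane protease of epithelial cells, and PRSS8 encodes prostasin, a lipid-anchored protease; each takes part in activating the other in epithelia, where they support barrier formation and sodium channel activation. SPINT1 (HAI-1) and SPINT2 (HAI-2) are membrane-bound inhibitors of both proteases, and loss of this inhibition is linked to intestinal and epithelial disease. PRSS2 and PRSS3 encode the digestive enzyme precursors anionic trypsinogen and mesotrypsinogen, which some carcinomas also make. PRSS16, the thymus-specific serine protease, carries a related name but belongs to the prolyl carboxypeptidase family rather than to the trypsin family.

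The knockdown was seen on every array. PSMD10, the gankyrin gene, had log2 signals of 10.19, 10.23 and 10.15 on the control arrays and 6.58, 6.47 and 6.30 on the knockdown arrays (limma log2 fold change -3.74 ± 0.08 SE, adjusted p = 6.81e-09), with p = 0.1 in a two-sided exact permutation test, the smallest value that 3 arrays a group allow. Array medians lay between 4.19 and 4.25. Control replicate 3 stood apart in transcript end balance, that is the log2 signal of the 3′ control probe set minus that of the 5′ one. For ACTB it was 1.82 in this array against 0.43 to 0.53 in the others of both groups, and for GAPDH it was 0.56 against -0.11 to 0.00, so each count and each change of the 9 genes was also computed without it. Differences are taken within a probe set, since probe sets differ in response. Signals of different probe sets are compared to filter and rank them and to place them relative to the low end of the scale, defined below. They are also summed over marker lists, where the brightest probe sets weigh most.

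All 9 genes had a lower mean after knockdown, and 6 of them fell at an adjusted p under 0.05 (limma, Benjamini-Hochberg over 14199 genes), 5 of the 7 proteases and 1 of the 2 inhibitors. Across all genes 14.3% fell by that criterion and 8.13% rose. None of the 9 rose (0 at an unadjusted p under 0.05 in limma), and PRSS16, PRSS22 and SPINT2 did not pass. The decreases, by the brightest probe set of each gene, ran from 1.09-fold for SPINT2 to 1.51-fold for PRSS2. Their median log2 fold change was -0.40 against -0.02 for all genes tested. For 8 of the 9 genes all knockdown arrays lay below all control arrays, which held for 24.6% of all genes. In RNA from a whole culture, fewer cells making a transcript and less transcript per cell cannot be told apart. The balance of rises and falls depended on scaling: 36.2% of all called genes were higher with the values as deposited and 60.7% when each array was centred on the median of its tested genes. That centring moved every change up by 0.10, left the 9 genes lower in mean, and left 5 of the 6 falls past the threshold, the exception being PRSS3.

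**Figure D1:**
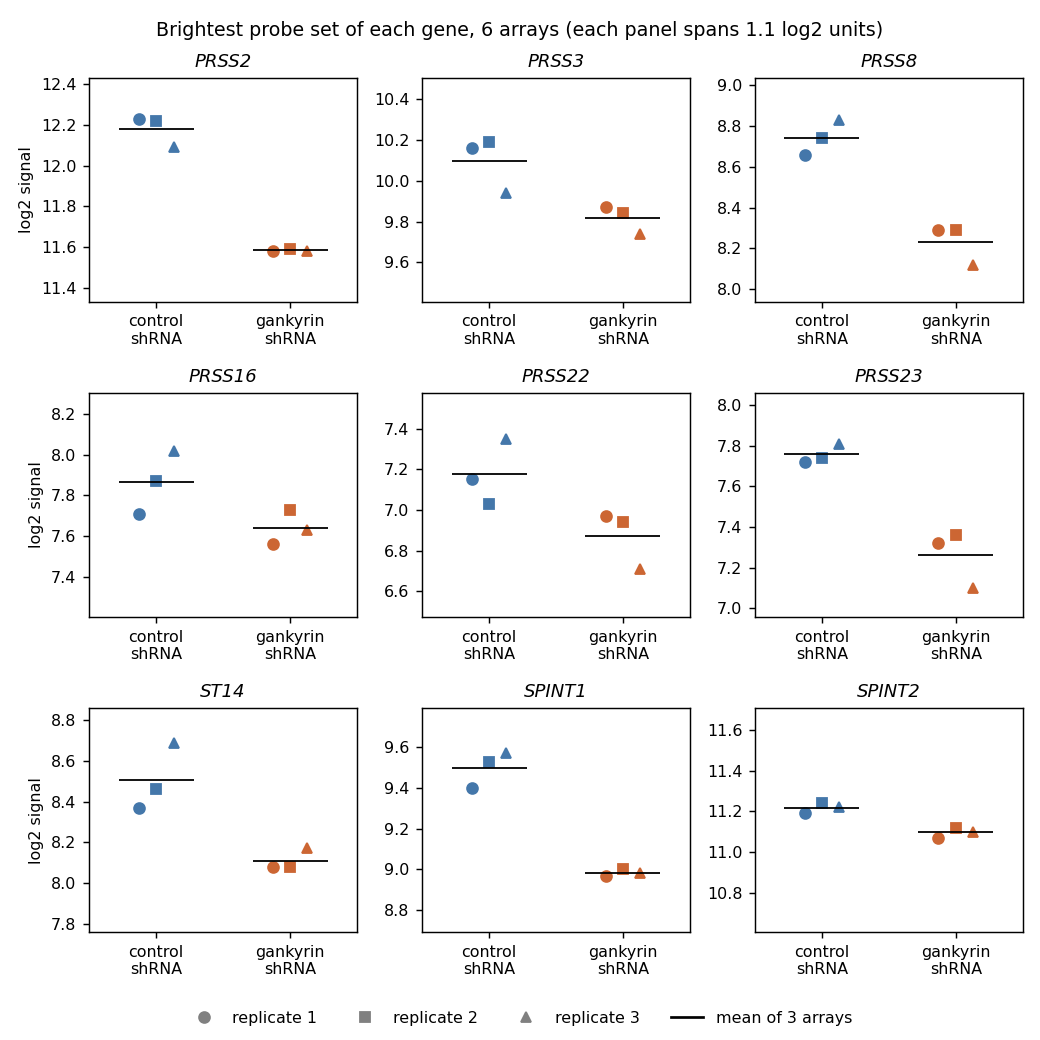
Log2 signal of the brightest probe set of each gene on the 3 control shRNA arrays (blue) and the 3 gankyrin shRNA arrays (orange), with marker shape for the replicate and a line for the mean of 3 arrays; every panel spans the same height. The groups overlap for PRSS16 only, where knockdown replicate 2 at 7.73 lies above control replicate 1 at 7.71, and the separation is widest for PRSS2.

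Within the matriptase system, ST14, PRSS8 and SPINT1 fell. The log2 signal of ST14 was 8.37, 8.46 and 8.69 on the control arrays and 8.08, 8.08 and 8.17 on the knockdown arrays. Every knockdown value lay below the lowest control value, with a gap of 0.20, and the highest value came from control replicate 3. ST14 fell 1.32-fold (log2 fold change -0.40 ± 0.09 SE, limma adjusted p = 0.0103), to 76.0% of control. It no longer passed when knockdown replicate 1 (limma adjusted p = 0.0513) or 2 (0.0519) was left out, while without control replicate 3 the change was -0.31 on the log2 scale (limma adjusted p = 0.0014).

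PRSS8, the gene of the partner protease prostasin, had log2 signals of 8.66, 8.74 and 8.83 on the control arrays and 8.29, 8.29 and 8.12 on the knockdown arrays. The groups were separated by 0.37, more than the range within either group. PRSS8 fell 1.42-fold (log2 fold change -0.51 ± 0.08 SE, limma adjusted p = 0.00146).

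SPINT1, whose product HAI-1 binds and inhibits active matriptase, had log2 signals of 9.40, 9.53 and 9.57 on the control arrays and 8.97, 9.0 and 8.98 on the knockdown arrays. The knockdown arrays were nearly identical to each other and lay 0.40 below the lowest control. SPINT1 fell 1.43-fold (log2 fold change -0.52 ± 0.06 SE, limma adjusted p = 0.000454), to 69.9% of control. The protease genes ST14 and PRSS8 and the inhibitor gene SPINT1 were therefore lower on the same arrays, and their 95% intervals overlapped: -0.59 to -0.20 for ST14, -0.68 to -0.34 for PRSS8 and -0.65 to -0.38 for SPINT1.

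The second inhibitor differed in size from the brightest SPINT1 probe set. SPINT2 had log2 signals of 11.19, 11.24 and 11.22 on the control arrays and 11.07, 11.12 and 11.10 on the knockdown arrays. All knockdown values were lower, but the gap was 0.07 and the gene did not pass (log2 fold change -0.12 ± 0.04 SE, limma adjusted p = 0.0558). Its 95% interval, -0.21 to -0.03, did not overlap that of the brightest SPINT1 probe set. In the fit by probe set, the dimmer SPINT1 probe set had an interval of -0.64 to -0.10, which overlapped that of SPINT2. SPINT2 passed without control replicate 3 (limma adjusted p = 0.0351), and its change was -0.02 when arrays were centred on the median of their tested genes.

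On the brightest probe set of each gene, the trypsinogen gene PRSS2 had the largest decrease of the 9. Its log2 signal was 12.23, 12.22 and 12.09 on the control arrays and 11.58, 11.59 and 11.58 on the knockdown arrays. The knockdown arrays agreed to within 0.01, and the lowest control value, from replicate 3, was still 0.50 above them. PRSS2 fell 1.51-fold (log2 fold change -0.60 ± 0.04 SE, limma adjusted p = 2.59e-05), to 66.1% of control, and 427 of the 14199 genes had a more negative change. Its second probe set gave 11.80, 11.70 and 11.69 in control and 11.17, 11.14 and 11.21 in knockdown arrays, a change of -0.56.

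PRSS3, its close relative, had log2 signals of 10.16, 10.19 and 9.94 on the control arrays and 9.87, 9.84 and 9.74 on the knockdown arrays. The groups came within 0.07 of each other, control replicate 3 being the lowest control array. PRSS3 fell 1.21-fold (log2 fold change -0.28 ± 0.07 SE, limma adjusted p = 0.0211). This call was lost when control replicate 1 or 2 or any 1 of the 3 knockdown arrays was left out, with limma adjusted p-values from 0.0517 to 0.0990. Without control replicate 3 the decrease was larger (-0.36 on the log2 scale, limma adjusted p = 6.51e-05). On their brightest probe sets the 95% intervals of PRSS2 (-0.69 to -0.50) and PRSS3 (-0.44 to -0.12) did not overlap. In the fit by probe set, the second PRSS2 probe set (-0.658 to -0.456) slightly overlapped the brighter PRSS3 one (-0.460 to -0.0998). The other pairings of their probe sets did not overlap. All 4 probe sets of PRSS2 and PRSS3 have names ending in _x_at, the manufacturer's mark for probes that can match other transcripts, so signal may be shared among these near-identical trypsinogen genes. One more probe set is assigned to a member jointly with another gene and was left out, and PRSS1, the cationic trypsinogen gene, was not analysed here because it had no probe set assigned to it alone.

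RefSeq promoter windows on GRCh38.p14 were matched for 5 of the 9 genes: PRSS2, PRSS3, PRSS16, PRSS23 and SPINT1. The 250 bases before the annotated start are shown for the 4 of these that fell, to set the similar trypsinogen pair beside the first listed starts of SPINT1 and PRSS23, which are GC-rich. Capitals mark matches, on either strand, to the GC box of SP1 (GGGCGG), the TATA box (TATAAA), an E-box (CACCTG) and an AP-1-like motif (TGANTCA). SNAI and ZEB factors are among those that bind this E-box, and N stands for any base. All 4 lie on the plus strand, at chr7:142770720-142770969 for PRSS2, chr9:33795311-33795560 for PRSS3, chr15:40843798-40844047 for SPINT1 and chr11:86800292-86800541 for PRSS23, the last 2 being the first of 2 listed starts.
PRSS2: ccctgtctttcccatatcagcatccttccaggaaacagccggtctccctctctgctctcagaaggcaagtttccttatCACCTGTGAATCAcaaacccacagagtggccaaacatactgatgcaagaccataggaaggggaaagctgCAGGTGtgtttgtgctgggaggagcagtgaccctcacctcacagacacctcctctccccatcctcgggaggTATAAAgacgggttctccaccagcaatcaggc
PRSS3: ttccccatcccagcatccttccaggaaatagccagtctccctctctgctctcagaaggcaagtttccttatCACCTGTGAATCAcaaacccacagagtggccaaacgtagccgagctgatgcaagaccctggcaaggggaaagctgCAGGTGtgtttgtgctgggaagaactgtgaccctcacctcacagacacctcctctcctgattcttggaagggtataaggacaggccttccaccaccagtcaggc
SPINT1: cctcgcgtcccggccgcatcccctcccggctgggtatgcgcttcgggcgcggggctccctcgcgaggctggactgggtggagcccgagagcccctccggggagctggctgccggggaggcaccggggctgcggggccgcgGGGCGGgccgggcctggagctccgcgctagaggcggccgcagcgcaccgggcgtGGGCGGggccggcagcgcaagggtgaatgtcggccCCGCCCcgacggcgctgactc
PRSS23: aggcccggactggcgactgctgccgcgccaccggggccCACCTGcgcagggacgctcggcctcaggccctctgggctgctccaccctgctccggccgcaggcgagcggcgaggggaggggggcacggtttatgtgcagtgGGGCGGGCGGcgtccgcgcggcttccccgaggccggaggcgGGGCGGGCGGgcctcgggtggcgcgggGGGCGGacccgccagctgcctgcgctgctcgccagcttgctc

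The PRSS2 and PRSS3 windows were identical at 219 of 257 aligned columns (85.2%). Each held 2 E-box matches. In each the first of these was followed directly, without overlap, by the AP-1-like match, which read TGAATCA, as the run of capitals shows. The TATAAA match lay 32 bases before the start of PRSS2. The PRSS3 window had no exact match to those letters and read tataag at the corresponding place. SPINT1 held 3 GC boxes at a GC content of 80.4%, and PRSS23 held 5, of which 2 pairs overlap within their pair, and 1 E-box at a GC content of 79.6%. The second listed starts of these 2 genes differed: the SPINT1 window from 40844227 held 0 GC boxes and 1 E-box at 70.4% GC, and the PRSS23 window from 86790821 held no match to any of the 4 motifs at 47.6% GC. Which start SW480 cells use was not measured. The PRSS16 window also held no match. Among 35116 RefSeq windows of this length, 42.6% held the GC box, 10.7% the TATA box, 17.5% the E-box and 6.57% the AP-1-like motif. These matches describe letters in a window, and binding was not measured.

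Among the remaining proteases, PRSS23, a secreted serine protease, fell. Its brightest probe set read 7.72, 7.74 and 7.81 on the control arrays and 7.32, 7.36 and 7.10 on the knockdown arrays. The groups were separated by 0.36, and knockdown replicate 3 was the lowest array. PRSS23 fell 1.41-fold (log2 fold change -0.50 ± 0.09 SE, limma adjusted p = 0.00325). Of its other probe sets, one read 6.24, 6.30 and 6.53 in control and 5.57, 5.69 and 5.66 in knockdown arrays (change -0.72), and a dim one read 4.68, 4.89 and 4.79 against 3.83, 4.25 and 4.01 (change -0.76). Of its 4 probe sets 3 therefore separated the groups in the same direction; the last, at 3.47 in control and 3.50 in knockdown arrays, lay under the signal filter and was not tested.

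PRSS22, a tryptase-like protease of airway and other epithelia, had log2 signals of 7.15, 7.03 and 7.35 on the control arrays and 6.97, 6.94 and 6.71 on the knockdown arrays. The groups did not overlap, but the gap of 0.06 was smaller than the spread within either group. The change was -0.30 ± 0.11 (log2 ± SE) and did not pass (limma adjusted p = 0.0676), with a 95% interval of -0.54 to -0.07.

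PRSS16 had log2 signals of 7.71, 7.87 and 8.02 on the control arrays and 7.56, 7.73 and 7.63 on the knockdown arrays. Its groups overlapped, and the change of -0.23 ± 0.09 (log2 ± SE) did not pass (limma adjusted p = 0.107). Without control replicate 3 it was -0.15 (limma adjusted p = 0.144), and without control replicate 1 it was -0.31 and passed (limma adjusted p = 0.0411).

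Taking probe sets separately, 16 of the 17 passed the signal filter and 10 of the 16 fell at an adjusted p under 0.05 over all 32759 probe sets (limma), where 6.54% of all probe sets did so. For 14 of the 16 all knockdown arrays lay below all control arrays, against 20.0% of all probe sets. The other 2 were the PRSS16 probe set and a dim ST14 probe set with means of 3.82 and 3.71 (control and knockdown). That ST14 probe set and 2 of PRSS23 had means under 4.48, the 95th percentile of 107 probe sets of olfactory receptor genes, taken as the low end of the scale. The second ST14 probe set, at 8.13, 8.25 and 8.17 against 7.81, 7.84 and 7.92, fell by 0.33, close to the first. The second SPINT1 probe set, at 6.22, 6.13 and 6.52 against 5.91, 5.93 and 5.92, changed by -0.37 and did not pass (limma adjusted p = 0.0872 over probe sets). The brighter PRSS3 probe set also missed the threshold over probe sets (limma adjusted p = 0.0612), whereas its dimmer one passed (0.0359). Leaving out knockdown replicate 1, 2 or 3 lowered the 10 called probe sets to 4, 6 or 3. Over all probe sets the same fits lowered the calls from 3467 to 716, 776 or 723.

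**Figure D2:**
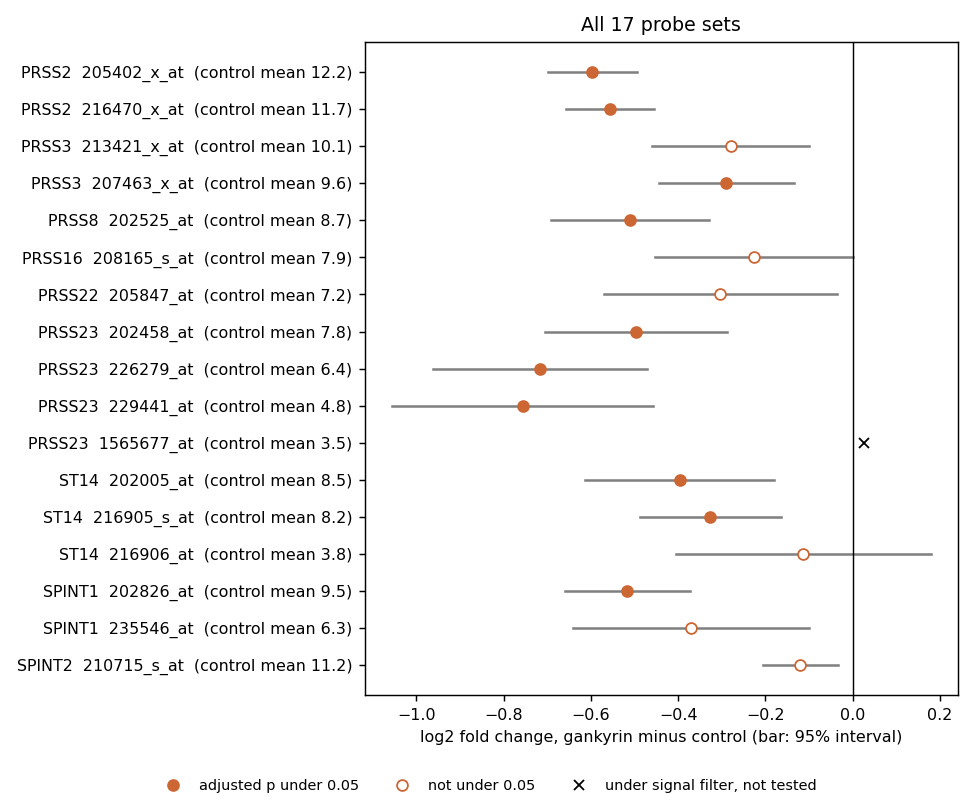
Log2 fold change (gankyrin shRNA minus control shRNA) of all 17 probe sets, with 95% intervals from limma on 3 against 3 arrays; filled circles passed an adjusted p of 0.05 over all probe sets, open circles did not, and the cross was under the signal filter. The 2 PRSS2 probe sets lie at -0.60 and -0.56 and the 2 PRSS3 probe sets at -0.28 and -0.29, and only the untested PRSS23 probe set lies above 0.

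Control replicate 3 was the highest control array for 6 of the 9 genes (PRSS8, PRSS16, PRSS22, PRSS23, ST14 and SPINT1) and the lowest for 2 (PRSS2 and PRSS3). Without it the changes of those 6 genes became smaller and those of the trypsinogen genes larger, to -0.64 for PRSS2 and -0.36 for PRSS3. PRSS8, PRSS23 and SPINT1 were then at -0.47, -0.47 and -0.48, and PRSS22 at -0.22. Without that array 7 of the 9 genes fell in limma, SPINT2 being added to the 6 although its change stayed at -0.12. Over all 14199 genes the falls then numbered 2353, against 2035 with all 6 arrays. The falls in the lists of related genes described next were then as many as with all 6 arrays.

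**Figure D3:**
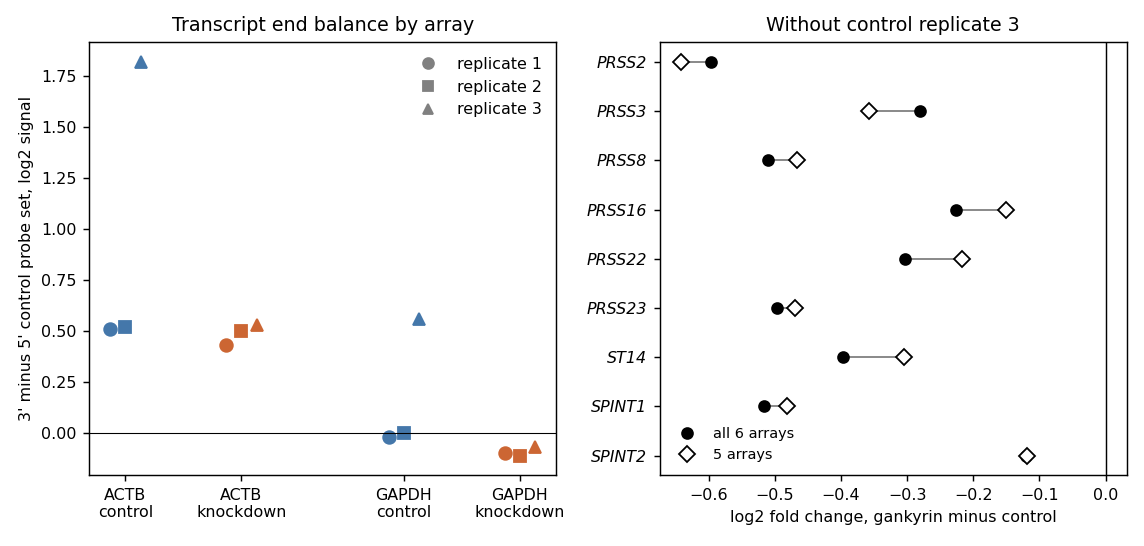
Left, log2 signal of the 3′ minus the 5′ control probe set of ACTB and GAPDH on each array, where control replicate 3 lies at 1.82 and 0.56, above the 5 other arrays. Right, the log2 fold change of each gene with all 6 arrays (filled) and without control replicate 3 (open); the change of every gene stays below 0, and PRSS2 and PRSS3 move away from 0.

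Other genes of pericellular proteolysis moved in both directions. Each list count below stands beside the 14.3% of all genes tested that fell and the 8.13% that rose. Of 22 tested genes of serine protease inhibitor families 6 fell and 3 rose, with a median log2 fold change of -0.10. SERPINE2, the gene of protease nexin-1, which inhibits thrombin, urokinase and trypsin, fell 2.93-fold from 8.77 ± 0.15 to 7.21 ± 0.18 (SD, n = 3 each; limma adjusted p = 1.69e-05). SERPINI1 (neuroserpin, an inhibitor of tissue plasminogen activator) fell 2.74-fold from 5.99 ± 0.07 to 4.54 ± 0.13. Its knockdown mean lay close to the low end of 4.48, and knockdown replicate 3, at 4.39, lay under it. SPINK1, the secreted pancreatic trypsin inhibitor, read 11.58, 11.77 and 11.93 on the control arrays and 11.04, 11.13 and 11.18 on the knockdown arrays and fell 1.56-fold (limma adjusted p = 0.000479). The inhibitor of trypsin was thus lower on the same arrays as the trypsinogen transcripts. SERPINH1, counted among the 6 falls as a member of the serpin family, is a collagen chaperone with no known protease target and fell 1.38-fold. The 3 rises, named after their values were seen, were AMBP, the precursor of the Kunitz inhibitor bikunin (0.77 ± 0.13, log2 ± SE), SERPINA3, an antichymotrypsin (0.47 ± 0.09), and SERPINB1, an inhibitor of leukocyte elastase (0.20 ± 0.05), whose call was lost without knockdown replicate 1 or 2. The 2 other falls, TFPI and PI3, lost their calls in 4 and 3 of the 6 fits that left out an array (TFPI without control replicate 1 or 2 or knockdown replicate 1 or 3, PI3 without knockdown replicate 1, 2 or 3).

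Of 10 tested genes for other membrane-anchored serine proteases 1 rose and 0 fell in limma (0 lower at an unadjusted p under 0.05), with a median of 0.02. TMPRSS4, a transmembrane protease described in carcinomas, read 5.70, 5.50 and 5.64 on the control arrays and 6.19, 6.14 and 6.01 on the knockdown arrays. It rose 1.41-fold (limma adjusted p = 0.0051), the direction opposite to that of ST14 and PRSS8. Of 28 tested genes in a list built mainly of secreted serine proteases 3 fell and 1 rose, with a median of 0.04. The kallikrein gene KLK10 fell 2.13-fold from 6.64 ± 0.15 to 5.55 ± 0.21 (SD, n = 3 each), whereas the kallikrein gene KLK11 rose 1.41-fold from 5.57 ± 0.10 to 6.07 ± 0.13. PLAU, the urokinase gene, fell 1.57-fold from 4.80 ± 0.10 to 4.15 ± 0.17, with a knockdown mean under the low end of 4.48, and its dimmer probe set changed by -0.33 and did not pass. The third fall in that list, HTRA2, is of a mitochondrial and not a secreted serine protease; it fell 1.39-fold, on both its probe sets.

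Genes for substrates, activated receptors and surface partners of these proteases formed the last list. Of 14 tested 8 fell and 1 rose, with a median log2 fold change of -0.26. The falls numbered 4 without knockdown replicate 1 or 2, 5 without control replicate 2 and 3 with the mean of all probe sets per gene. Over all genes the falls in those fits numbered 1104, 1130, 1624 and 1396 in that order, against 2035 in the main comparison. CDH1, the E-cadherin gene, read 7.16, 7.21 and 7.39 on the control arrays and 6.63, 6.63 and 6.57 on the knockdown arrays and fell 1.56-fold (limma adjusted p = 0.000863). CLDN7, a claudin that binds EPCAM, fell 1.23-fold from a control level of 11.29 ± 0.04 (SD, n = 3). CDCP1, a surface protein cleaved by matriptase and other trypsin-like proteases, fell 1.43-fold on its brightest probe set, but its 2 dimmer probe sets changed by -0.03 and -0.02. TFRC, the transferrin receptor gene, rose 1.29-fold on its brightest probe set; of its 3 other probe sets, all higher in mean, 2 did not pass, and the call was lost with the mean of all of them (limma adjusted p = 0.0895). The 5 other falls, named after their values were seen, were DSG2 (desmoglein), SCNN1A (a subunit of the epithelial sodium channel), MST1R and MET (receptors of ligands that such proteases activate) and F2R (the thrombin receptor). DSG2 kept its call in all 6 fits that left out an array. It lost the call with the mean of its probe sets (change -0.11, limma adjusted p = 0.505). With that mean SCNN1A (change -0.08, limma adjusted p = 0.505), MET and F2R also lost their calls, and MST1R kept its call. The calls of SCNN1A, MST1R, MET and F2R were each lost in 3 or 4 of the 6 fits that left out an array: SCNN1A without knockdown replicate 1, 2 or 3, MST1R and F2R without control replicate 2 or knockdown replicate 1 or 2, and MET without control replicate 2 or knockdown replicate 1, 2 or 3. F2RL1, the gene of the trypsin receptor PAR2, had no probe set of its own and was not analysed here.

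**Figure D4:**
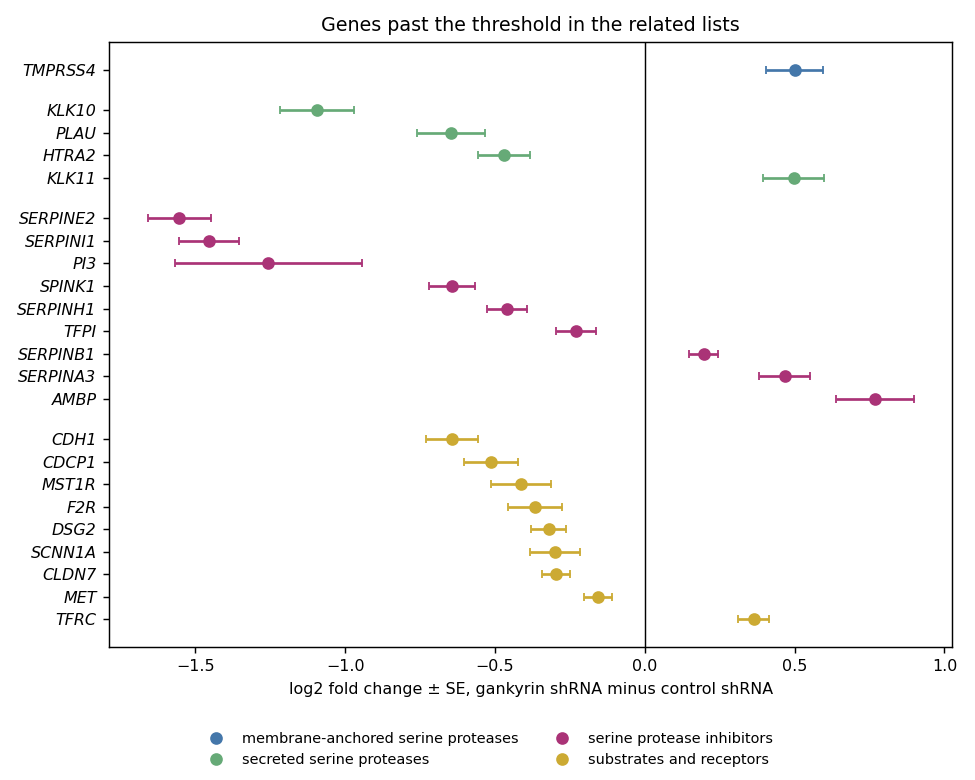
Log2 fold change ± SE (gankyrin shRNA minus control shRNA, 3 arrays each) of the genes past an adjusted p of 0.05 in 4 lists of related genes. The lists of inhibitors and of mainly secreted proteases have genes on both sides of 0, and TMPRSS4 at 0.50 is the single called gene among the other membrane-anchored proteases.

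Markers checked the label and other possible sources of these transcripts. Colonic epithelial markers lay mostly far above the low end, with KRT18 at 13.05 ± 0.08 in control and 12.99 ± 0.03 in knockdown arrays and EPCAM, which is also in the substrate list, at 12.20 in both; 8 of the 10 were above the low end. KRT19, KRT20 and CEACAM5 fell (log2 fold changes -0.46, -0.66 and -1.14) and VIL1 rose (0.82), named after their values were seen. The summed linear signal of the 10 colonic markers was 18256 to 18896 in control and 17181 to 17655 in knockdown arrays, without overlap. Pancreatic acinar markers, included because the pancreas makes trypsinogens, lay mostly at the low end. Of 11 with a probe set 3 exceeded it, among them CTRB2 at 4.87 ± 0.10 and 4.83 ± 0.09 and CELA3A at 4.73 ± 0.27 and 4.92 ± 0.11. Of the 4 tested, 0 rose and 0 fell in limma (0 at an unadjusted p under 0.05), and their summed linear signal was 92.1 to 105 in control and 101 to 107 in knockdown arrays. Of the 3 fibroblast and 4 leukocyte markers tested 0 passed by gene in limma (1 leukocyte marker, ITGAM, higher at an unadjusted p under 0.05). Their summed linear signals were 147 to 207 and 149 to 167 in control and 193 to 202 and 172 to 188 in knockdown arrays. The brightest probe set of the fibroblast marker COL1A1 changed by 0.21. Its dimmer one, at 4.05 in control and 3.48 in knockdown arrays, changed by -0.57 and passed over probe sets (limma adjusted p = 0.0357). Without control replicate 3 ITGAM passed (change 0.46 on the log2 scale, limma adjusted p = 0.0024), as it did with centring on the median of the tested genes (0.44, limma adjusted p = 0.0125). The part of the epithelial, fibroblast and leukocyte marker changes in the results above was not tested.

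As a description of profile, the genes whose values over the 6 arrays were most like those of ST14 were OIP5-AS1, FANCE, IFNGR1, THRAP3 and ZCCHC14, with Pearson r from 0.996 to 0.999. These r values span both groups and so reflect the difference between them together with the high value of control replicate 3. Among the other 8 genes, SPINT1 was nearest to ST14 (r = 0.946, with 997 genes nearer) and PRSS3 was farthest (r = 0.535).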

How the data were processed

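Expression was measured on 6 one-colour Affymetrix arrays of SW480 cells, 3 per group, with groups and replicate numbers taken from the sample titles. The authors deposited log2 probe set signals for 54675 probe sets, with the log2 scale inferred from their range of 1.29 to 13.68. MAS5 is named per the submitters' processing notes, with no version or role, while summary method, scaling and genome build were not given in the sources used here. No detection calls were used, so no probe set is called absent, and the number of arrays limits the precision.

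Probe sets were named through the platform annotation, updated by Entrez identifier to RefSeq (GRCh38.p14): 41091 with 1 gene, 1801 with several, 11721 unnamed. Leaving out 62 controls and the lowest 40% of other probe sets (mean over all arrays, limit 3.60) left 32759. The brightest probe set assigned to a single gene stood for each of 14199 genes. The comparison used limma 3.58.1 under R 4.3.3 (lmFit, eBayes with an intensity trend, two-sided, Benjamini-Hochberg over the whole table, threshold 0.05), by gene and by probe set. The pipeline was tested on simulated data. "Fell" and "rose" are used only past the threshold.

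The genes, the related lists and the rule for naming genes were chosen with earlier results of these data known. Named were all 9 genes, PSMD10, the 4 called genes of smallest p in each related list, PRSS1, F2RL1, SPINK1 and PLAU, the 2 brightest genes of each marker list, and the 5 genes most like ST14. DCN, COL1A1, CD79A and ITGAM, the brightest fibroblast and leukocyte markers, did not pass by gene, on their brightest probe sets, with all arrays. Genes named outside this rule, after their values were seen, are marked so. Alternatives changed the scaling, filter, variance model, probe set choice, replicate block and arrays included.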

Additional observations from a re-analysis of the deposited data

How the results depend on the processing

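Over the 16 alternatives PSMD10 fell in each, 4 to 7 of the 9 genes fell and 0 rose. PRSS2, PRSS8, PRSS23 and SPINT1 passed in all 16, and no member gene's mean change turned above 0. With the mean of all probe sets per gene, PRSS23 had the largest decrease of the 9 (-0.66 on the log2 scale, against -0.58 for PRSS2). Leaving out each array in turn gave 1732 to 4161 called genes (3189 with all arrays), 716 to 7115 called probe sets (3467 with all arrays) and 3 to 11 called probe sets of the 9 genes (10 with all arrays). Each highest count came without control replicate 3 and each lowest without a knockdown array. PRSS3 also lost its call with no intensity trend (limma adjusted p = 0.0600), and SPINT2 passed with quantile normalization (0.0234) and with the lowest 60% of probe sets left out (0.0439). Centring on the median of the tested genes was added after the data were seen; it gave 2274 rises and 1470 falls, against 1154 and 2035, and moved the median of all genes from -0.02 to 0.08. Averaging a gene's probe sets turned TFPI to 0.072 and MET to 0.56, and avoiding probe sets ending in _x_at or _s_at turned F2R to 0.01; the first is the mean of more probe sets and the last is another probe set. Same-numbered replicates shared only a number: the correlations of their deviations from the group means were 0.02, 0.11 and -0.01, and not every array correlated best with its own number. With the replicate number as a block, 3049 genes and 2151 probe sets were called, and the block changed the call of none of the 9 genes.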
